A study of Mus musculus with 3 samples.

Results

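Accessible chromatin was examined around 8 genes that regulate the trophoblast, the embryonic lineage that builds the fetal part of the placenta: Tead4, Cdx2, Gata3, Tfap2c, Elf5, Ets2, Gata2 and Hand1. The data were ATAC-seq peaks, stretches of open DNA that the Tn5 transposase can enter, from mouse embryonic stem cells. A peak was included when its midpoint lay inside the body of a listed gene or within 50 kb of it. That rule used gene positions only and no measured value, but the genes and lists were chosen with earlier results of these data known. By this rule 73 of 88898 Halo-Sox2 peaks, 87 of 83995 Halo-Sox2a peaks and 72 of 72638 control peaks were members. Merging overlapping peaks of the 3 lists gave 120 regions at these loci, of 130664 in the genome.

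By its title, the study concerned the charge of unstructured protein regions in pioneer factors, which bind closed chromatin. Cells of line SES4.1 were induced with 300 ng/mL doxycycline over 20 h to make Halo-Sox2, a fusion of the pluripotency factor Sox2 to a tag that binds dyes. Cells of line SES5.1 were induced with 70 ng/mL over 20 h to make Halo-Sox2a, which is named in the labels and not described there. Both were stained with Halo-SiR dye at 50 nM and sorted through 1 common gate, while the control line SES11 had no inducible transgene, and the labels name no doxycycline dose, stain or sort for it. All 3 lines derive from CGR8 and grew in 10% serum with leukemia inhibitory factor, 3 µM CHIR99021 (a GSK3 inhibitor) and 0.8 µM PD184352 (a MEK inhibitor). Each group was 1 line and 1 library, so no test across replicates was possible. A difference between groups cannot be told apart from a difference between lines or libraries, or in doxycycline, staining or sorting where these differed.

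In the mouse blastocyst the outer cells become trophectoderm and the inner cells keep Sox2 and Oct4. Tead4, a DNA-binding partner of the Hippo pathway coactivator Yap1, acts upstream of Cdx2 and Gata3 in the outer cells, and Cdx2 and Oct4 repress each other. Tfap2c, Elf5 and Ets2 act with Cdx2 in trophoblast stem cells, and Gata2 and Hand1 act in later trophoblast, including giant cells. Embryonic stem cells normally do not make trophoblast, and Sox2 itself also works in trophoblast stem cells.

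The lists differ in size, and their depth is unknown. Scores are the authors' own whole numbers per peak with no stated scale, so each peak is given by its percentile, the share of peaks in its own list that score no higher. Where 3 percentiles follow each other below, they are those of Halo-Sox2, Halo-Sox2a and control, in that order, and a single list's value is named. Percentiles of different lists show an order within each list and not a change in openness. Over the Sox2 gene and 1 kb either side, the highest peak was at percentile 81.7 for Halo-Sox2, 100.0 for Halo-Sox2a (rank 2 of its list) and 64.6 for the control. Whether reads from the transgenes, which the control line lacks, add to the peaks over this gene was not tested. Peaks over Pou5f1, which encodes Oct4, were found in all 3 lists, with the highest between percentiles 61.0 and 82.7. Over Nanog the Halo-Sox2 list had no peak, and the other lists had 2 each. Peaks hold no RNA, so the labelled cell type was not checked by expression.

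Promoter sequence was at hand for 5 of the 8 genes, as 7 start sites in a RefSeq table of GRCm38.p6, the assembly also named mm10. The 250 bases before each start were searched on both strands for short forms of the sites of factors named here. For SOX factors the letters were ACAAAG. For OCT factors such as Oct4 they were ATGCAAAT. For GATA factors the search used AGATAA. For TEAD factors it used GGAATG. AP-2 factors were given GCCNNNGGC. The CDX search used TTTATGG. No matches overlapped each other. Of the 5 windows below, 4 are overlapped by a peak of at least 1 list, and the upstream Elf5 window, which has none, is shown beside the downstream one for contrast. Capitals show the matched letters, and the downstream Elf5 window has none. All are written 5′ to 3′ on the strand of the gene.
Cdx2, chr5:147307250-147307499, minus strand: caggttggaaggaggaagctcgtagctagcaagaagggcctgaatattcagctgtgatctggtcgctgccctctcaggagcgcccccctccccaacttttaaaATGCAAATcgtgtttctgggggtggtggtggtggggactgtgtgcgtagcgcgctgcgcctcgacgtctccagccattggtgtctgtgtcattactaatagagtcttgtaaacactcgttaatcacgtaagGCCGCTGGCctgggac
Gata3, chr2:9878601-9878850, minus strand: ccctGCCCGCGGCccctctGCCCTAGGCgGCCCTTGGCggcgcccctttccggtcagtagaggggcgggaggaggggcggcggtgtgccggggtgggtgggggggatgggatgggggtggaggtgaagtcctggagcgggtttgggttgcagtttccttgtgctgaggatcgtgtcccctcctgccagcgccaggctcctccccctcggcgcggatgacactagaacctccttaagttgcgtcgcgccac
Gata2, chr6:88198414-88198663, plus strand: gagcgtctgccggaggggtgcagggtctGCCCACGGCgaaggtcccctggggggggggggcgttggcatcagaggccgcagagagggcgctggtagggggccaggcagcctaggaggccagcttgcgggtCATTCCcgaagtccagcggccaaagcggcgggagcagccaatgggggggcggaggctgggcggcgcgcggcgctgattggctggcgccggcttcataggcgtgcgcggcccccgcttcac
Elf5 upstream, chr2:103411848-103412097, plus strand: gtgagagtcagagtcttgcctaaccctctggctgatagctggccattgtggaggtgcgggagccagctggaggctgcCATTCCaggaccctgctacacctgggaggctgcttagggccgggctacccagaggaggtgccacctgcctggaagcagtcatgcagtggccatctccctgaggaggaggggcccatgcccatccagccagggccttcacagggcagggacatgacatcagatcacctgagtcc
Elf5 downstream, chr2:103423818-103424067, plus strand: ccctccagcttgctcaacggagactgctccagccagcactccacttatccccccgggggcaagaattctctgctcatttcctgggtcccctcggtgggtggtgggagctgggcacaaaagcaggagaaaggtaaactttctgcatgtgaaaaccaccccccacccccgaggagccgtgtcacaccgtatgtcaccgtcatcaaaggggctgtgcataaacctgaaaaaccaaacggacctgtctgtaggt

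The Cdx2 window held the octamer bound by Oct4 and its relatives, from 147 to 140 bases before the start (chromosome 5, 147307389 to 147307396). Of all 32817 promoter windows in the table, 1.60% held these letters on either strand. It also held an AP-2 match, GCCGCTGGC, from 16 to 8 bases before the start. The Gata3 window held 3 AP-2 matches, from 246 to 213 bases before the start, and the Gata2 window held 1 AP-2 and 1 TEAD match. Of all windows, 13.7% held an AP-2 match and 12.6% a TEAD match. The Elf5 window above its upstream start held a TEAD match alone. None of the 7 windows held the SOX, GATA or CDX letters, which 16.5%, 9.99% and 2.43% of all windows did. A match is only a string of letters and not a shown binding site.

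Of the 7 windows, 4 were overlapped by a Halo-Sox2 peak, where 45.2% of all windows were. By a Halo-Sox2a peak 5 were overlapped (45.8% of all windows), and by a control peak 5 (44.9%). Peaks of every list overlapped 3 (the Gata3 start, the downstream Gata2 start and the Ets2 start), where 41.3% of all windows had this. The Cdx2 window was overlapped by the Halo-Sox2a and control peaks, the downstream Elf5 window by the Halo-Sox2 and Halo-Sox2a peaks, and the upstream Gata2 window by the control peak alone.

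Across the 8 loci most peaks were shared, and most shares of unshared peaks were near those of the whole lists. In the Halo-Sox2 list 27 of 73 peaks lacked an overlapping control peak (37.0%, with a 95% Wilson interval of 26.8 to 48.5%), where 49.3% of all Halo-Sox2 peaks lacked one. In the Halo-Sox2a list 32 of 87 (36.8%, 27.4 to 47.3%) overlapped no control peak, against 33.4% of the whole list. The Halo-Sox2 share lay below its genome value, which fell just outside the interval, and the Halo-Sox2a share lay near its own. The Halo-Sox2 departure was not stable: the interval took in the whole list's 49.3% when Cdx2, Gata2, Tead4, Hand1 or Ets2 was left out, 5 of the 8 omissions. It also took in the whole list's value with an overlap of 50% of both peaks (38.2 to 60.5%, against 59.5%) and with scores of at least 2 times the lowest (31.9 to 54.5%, against 49.8%). The interval stayed below that value with lists of equal size (20.7 to 44.7%, against 45.9%). It also stayed below 49.3% within 20 kb (19.1 to 44.8%) and, narrowly, within 100 kb of the genes (31.3 to 49.0%). Such intervals hold counting error alone, and peaks of 1 locus share their source.

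The reverse comparison gave 25 of 72 control peaks (34.7%, 24.8 to 46.2%) without a Halo-Sox2 peak, against 37.5% of the whole list. Without a Halo-Sox2a peak were 15 of 72 (20.8%, 13.1 to 31.6%), against 22.0%. Both shares lay near the genome values. Requiring an overlap of 50% of both peaks gave 31.9% for the latter at these loci and 36.03% in the whole list.

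Between the transgene lists, 21 of 73 Halo-Sox2 peaks (28.8%, 19.7 to 40.0%) had no Halo-Sox2a peak, against 38.7% of the whole list. In the other direction 35 of 87 Halo-Sox2a peaks (40.2%, 30.6 to 50.7%) had no Halo-Sox2 peak, against 35.4%. The intervals reach the genome values in both directions.

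**Figure D1:**
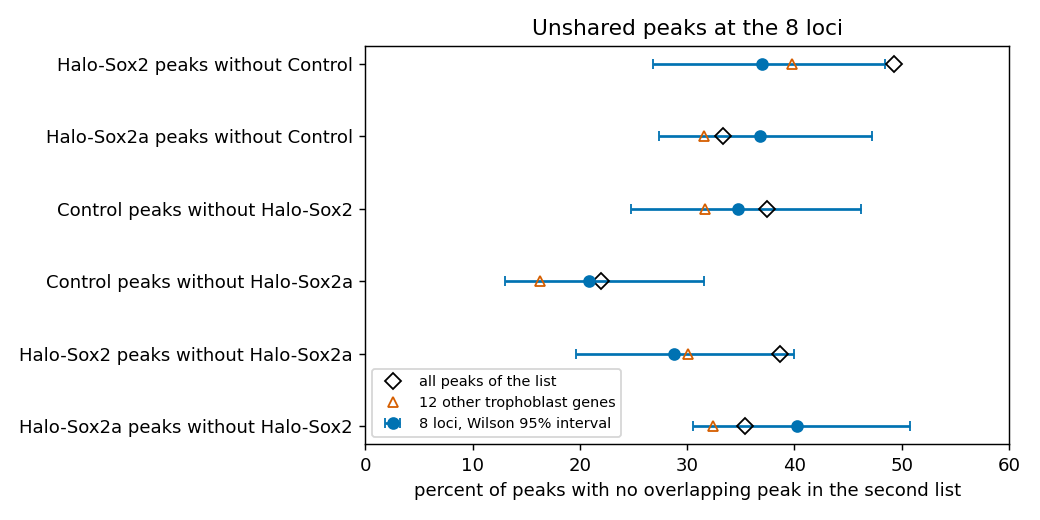
Percent of peaks at the 8 loci that overlap no peak of another list (points, with Wilson 95% intervals), beside the same percent over all peaks of the list (diamonds) and at 12 other trophoblast genes (triangles). The value for Halo-Sox2 peaks without a control peak, 37.0%, has an interval that ends just below the list's 49.3%, which it takes in when any of 5 loci is left out, and the other 5 intervals hold their list's value.

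Unshared peaks were lower in their list than shared ones in every comparison. Halo-Sox2 peaks without a control peak had a median percentile of 29.5, against 57.3 for those with one, and median widths of 353 and 670 bp. Halo-Sox2a peaks without a control peak had a median percentile of 34.9, against 60.2. Control peaks had medians of 24.7 without and 60.6 with a Halo-Sox2 peak. Whether a missing peak lay just under the calling threshold was not tested. Above percentile 75, 3 of 22 Halo-Sox2 peaks and 2 of 22 Halo-Sox2a peaks had no control peak, where 34.8% and 4.91% of all such peaks had none.

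By the lists that hold them, 43 of the 120 regions (35.8%, 27.8 to 44.7%) were in all 3 lists, against 32.1% of all regions. Regions of Halo-Sox2 alone numbered 18 (15.0%, 9.70 to 22.5%), against 24.3%, and those of Halo-Sox2a alone 23 (19.2%, 13.1 to 27.1%), against 12.2%. The 8 loci thus had more regions of Halo-Sox2a alone than of Halo-Sox2 alone, the reverse of the genome's order, and both genome values fell just outside the intervals. Ets2 and Tfap2c held 9 of the 23 regions of Halo-Sox2a alone, and Ets2 held 0 of Halo-Sox2 alone. These counts were not recomputed with a locus left out, so whether 1 locus decides the order was not tested. The order was lost with scores of at least 2 times the lowest, where there were 20 regions of each (genome shares 25.9% and 10.4%). It was kept in the other alternatives that recounted the classes, but narrowly within 100 kb of the genes. Of the 184 regions there, 32 were of Halo-Sox2 alone and 33 of Halo-Sox2a alone. With lists of equal size, regions of Halo-Sox2 alone numbered 11 of 104, where the genome share was 21.4%, and those of Halo-Sox2a alone numbered 17, where it was 9.97%.

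The remaining classes matched the genome within their intervals. Both transgene lists without the control held 9 regions (7.5%, 4.0 to 13.6%), against 8.95%, a class in which both are read against the same control. The control alone held 12 (10.0%), against 10.2%, Halo-Sox2a with the control held 12 (10.0%), against 10.3%, and Halo-Sox2 with the control held 3 (2.50%), against 1.90%.

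**Figure D2:**
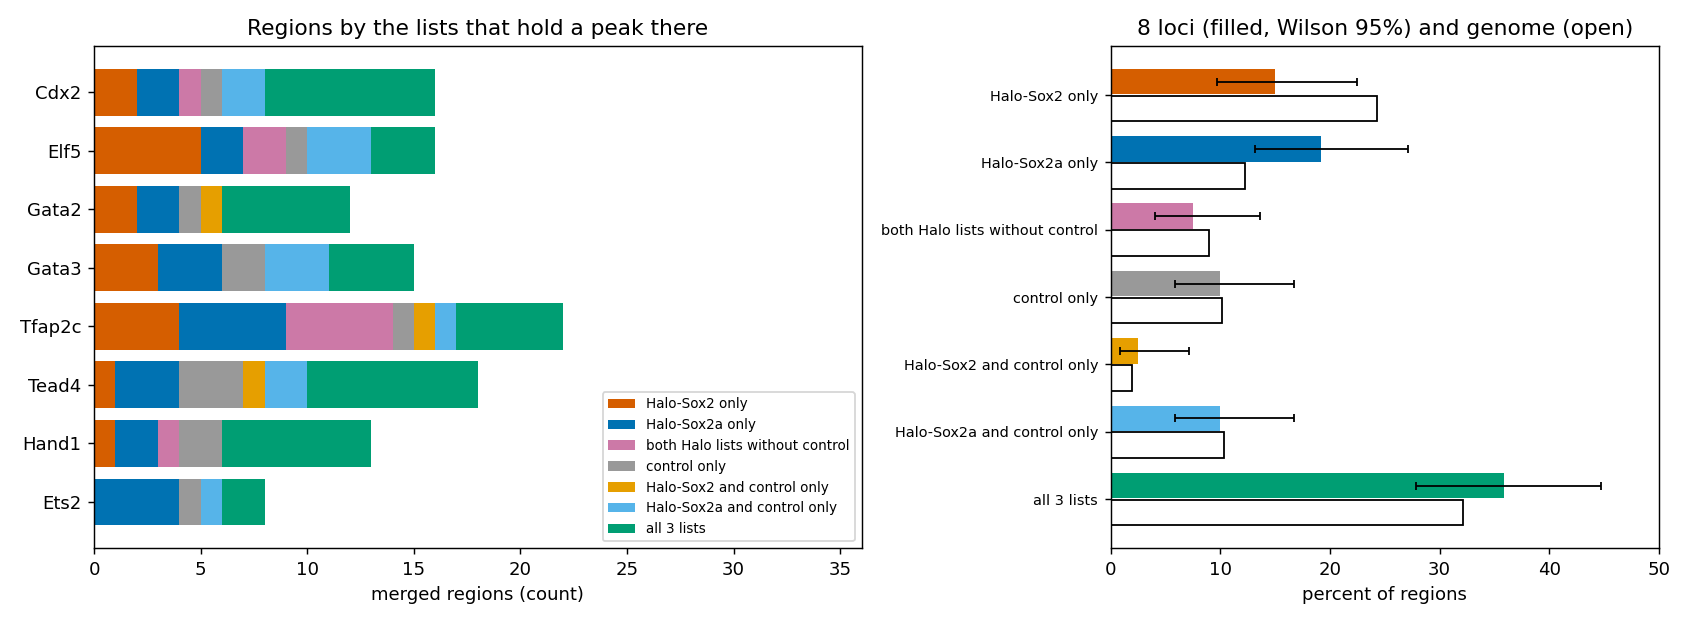
Left, merged regions per locus, coloured by the lists that hold a peak there, with Tfap2c the fullest locus (22 regions) and Ets2 the sparsest (8). Right, percent of the 120 regions in each class (filled bars, Wilson 95% intervals) and of all 130664 regions (open bars), where Halo-Sox2 alone lies below and Halo-Sox2a alone above the genome value.

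Of the 120 regions 50 were absent from the control list, where 45.5% of all regions were, and the loci lay on both sides of that share. Tfap2c had 22 regions, of which 14 were absent from the control, and Elf5 had 16 with 9 absent. Cdx2 had 16 with 5 absent from the control, Gata3 15 with 6, Tead4 18 with 4, Hand1 13 with 4, Gata2 12 with 4 and Ets2 8 with 4. All 4 of the Ets2 regions absent from the control were of Halo-Sox2a alone, and 5 of the 9 at Elf5 were of Halo-Sox2 alone. Per 100 kb of window, the Halo-Sox2 list held from 1.69 peaks (Ets2) to 13.3 (Tfap2c), the Halo-Sox2a list from 5.90 (Ets2) to 14.2 (Tfap2c) and the control list from 4.21 (Ets2) to 10.3 (Cdx2). The control list had 8 peaks at Tfap2c, where the Halo-Sox2 list had 15 and the Halo-Sox2a list 16.

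**Figure D3:**
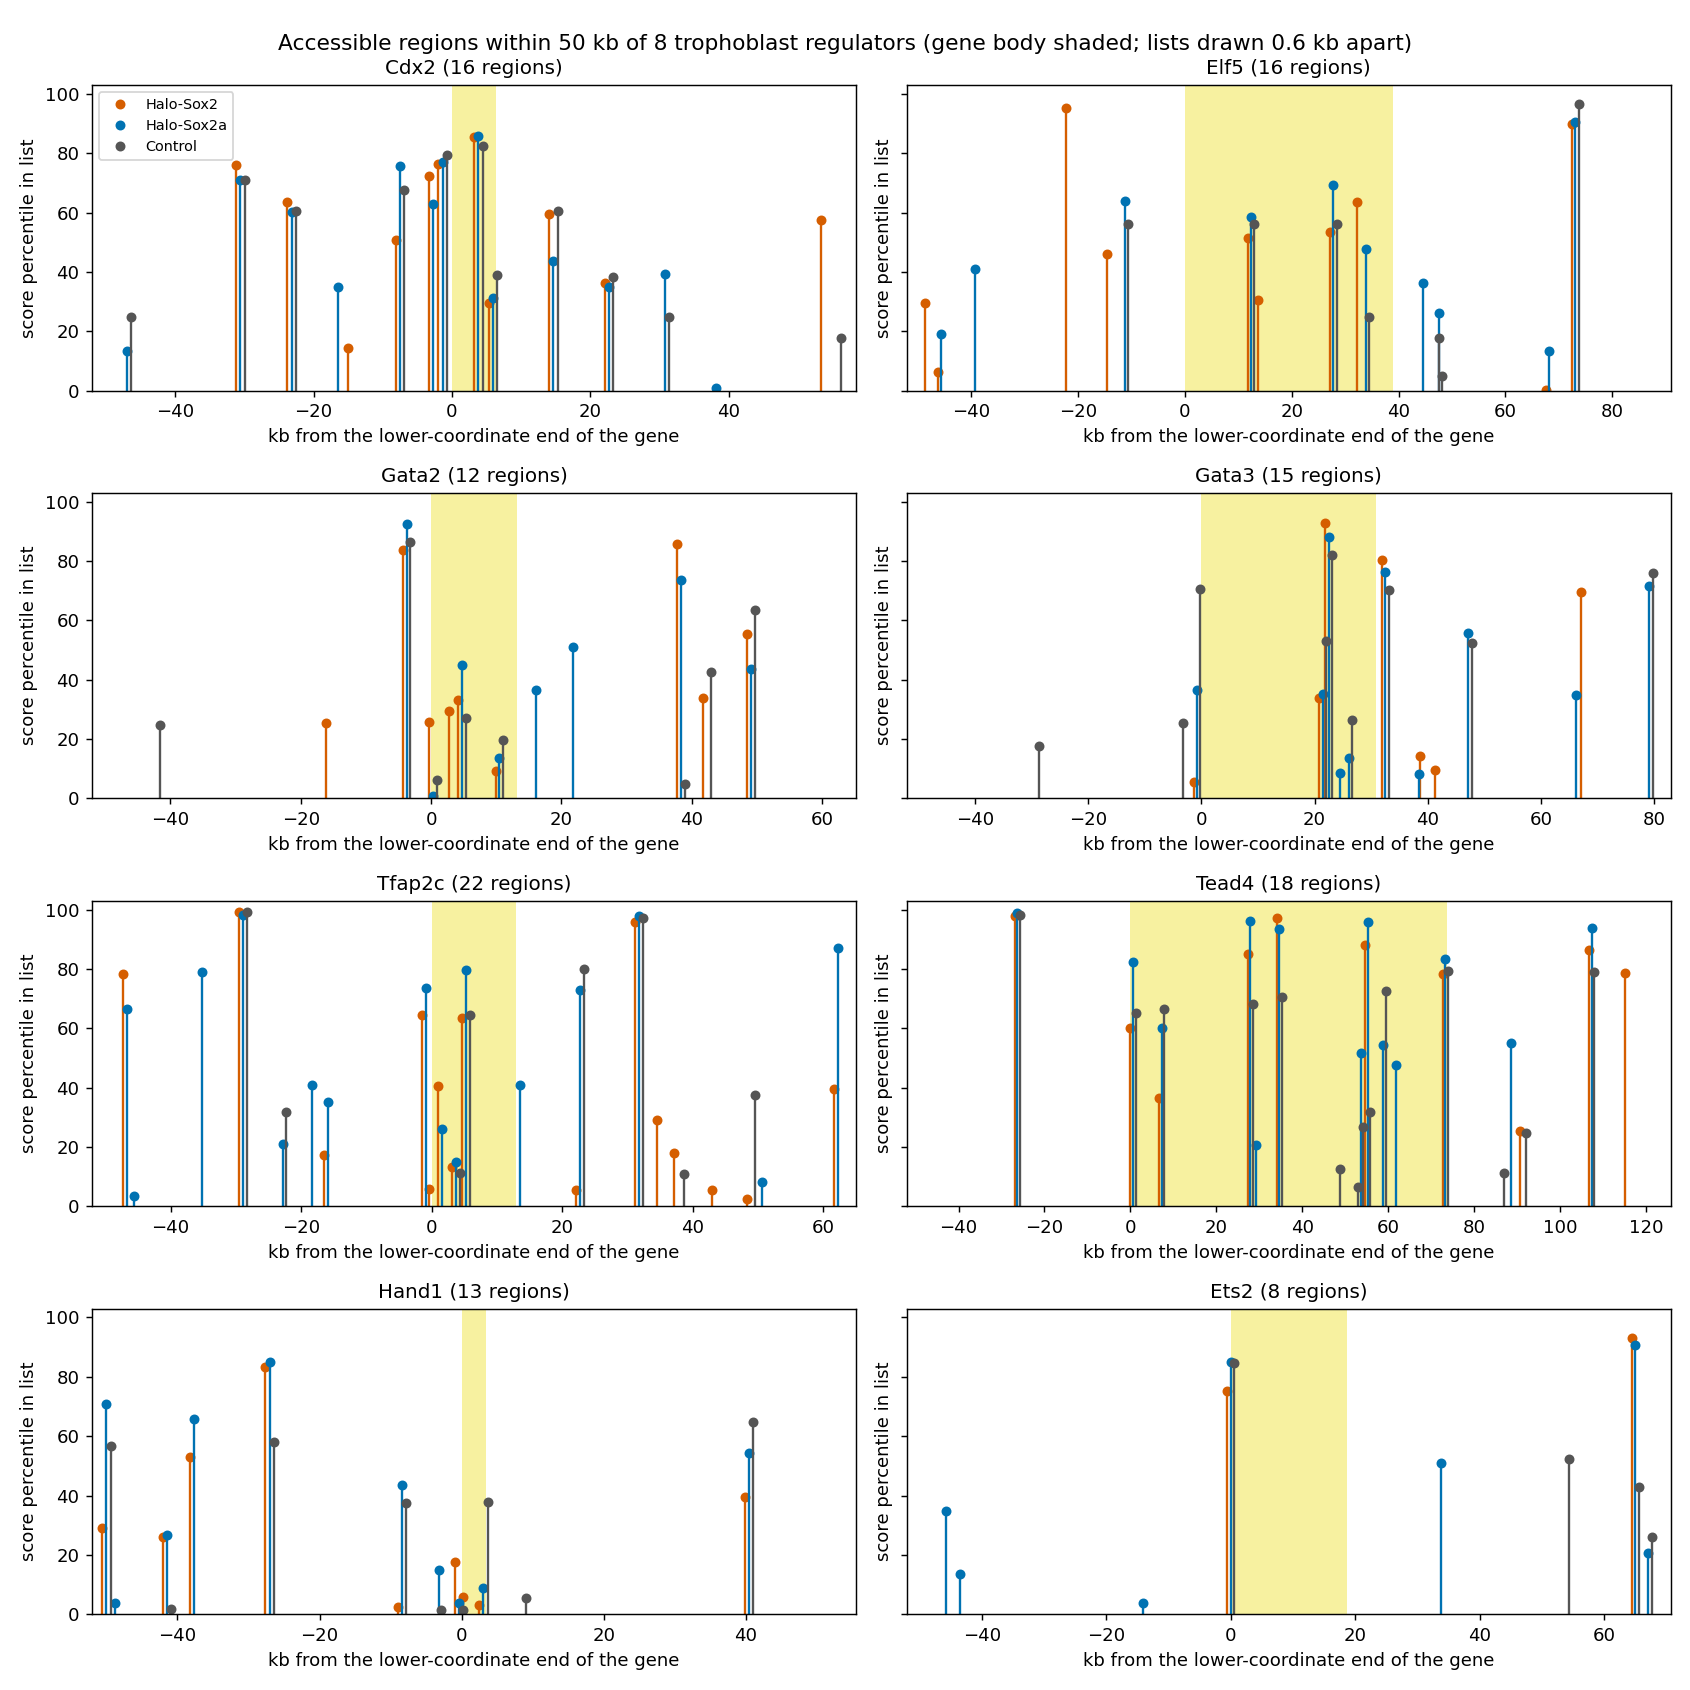
Each panel shows the regions of a locus by distance in kb from the lower-coordinate end of the gene (x) and by score percentile of the highest peak of each list there (y), with the gene body shaded. Near 0 in the Tfap2c panel stand peaks of both transgene lists and none of the control, and inside Tead4 a control peak at percentile 31.7 stands beside transgene peaks at 88.1 and 96.0.

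Regions at gene ends were mostly in all 3 lists, at about the genome's share. Within 1 kb of an end of any protein-coding gene lay 20 regions, of which 15 were in all 3 lists, where 74.3% of all such regions were. Inside protein-coding genes and away from their ends lay 40, of which 15 were in all 3 lists (37.5%), against 25.4%. Of the other 60, 13 were in all 3 lists (21.7%), against 25.5%. Ends of the 8 genes themselves accounted for 13 of the 20 regions at gene ends, 9 of them in all 3 lists. Regions of all 3 lists had a median width of 880 bp (843 bp in the genome). Those of Halo-Sox2 alone, Halo-Sox2a alone and the control alone had medians of 339, 284 and 266 bp (377, 293 and 277 bp in the genome). The gene table gives no exons or untranslated regions, so a region inside a gene is not assigned to either.

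For the 43 regions in all 3 lists, the order within each list could be compared. Halo-Sox2 percentiles were over 20 points above the control in 6 of 43 (14.0%), against 12.4% in the genome, and over 20 points below it in 7 (16.3%), against 24.6%. For Halo-Sox2a, 7 of 43 were over 20 points above the control (16.3%), against 16.1%, and 2 were over 20 points below it (4.65%), against 8.25%. The median difference from the control was -1.14 points for Halo-Sox2 (-5.28 in the genome) and 2.33 points for Halo-Sox2a (1.72 in the genome). As a group, then, the shared regions at these loci stood near the genome's values. Both sets of differences use the same control list, and the size of 20 points is not a test. With percentiles taken only among regions of all 3 lists, the 4 counts were 6, 3, 7 and 4, of which 5, 3, 6 and 1 were regions counted above.

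**Figure D4:**
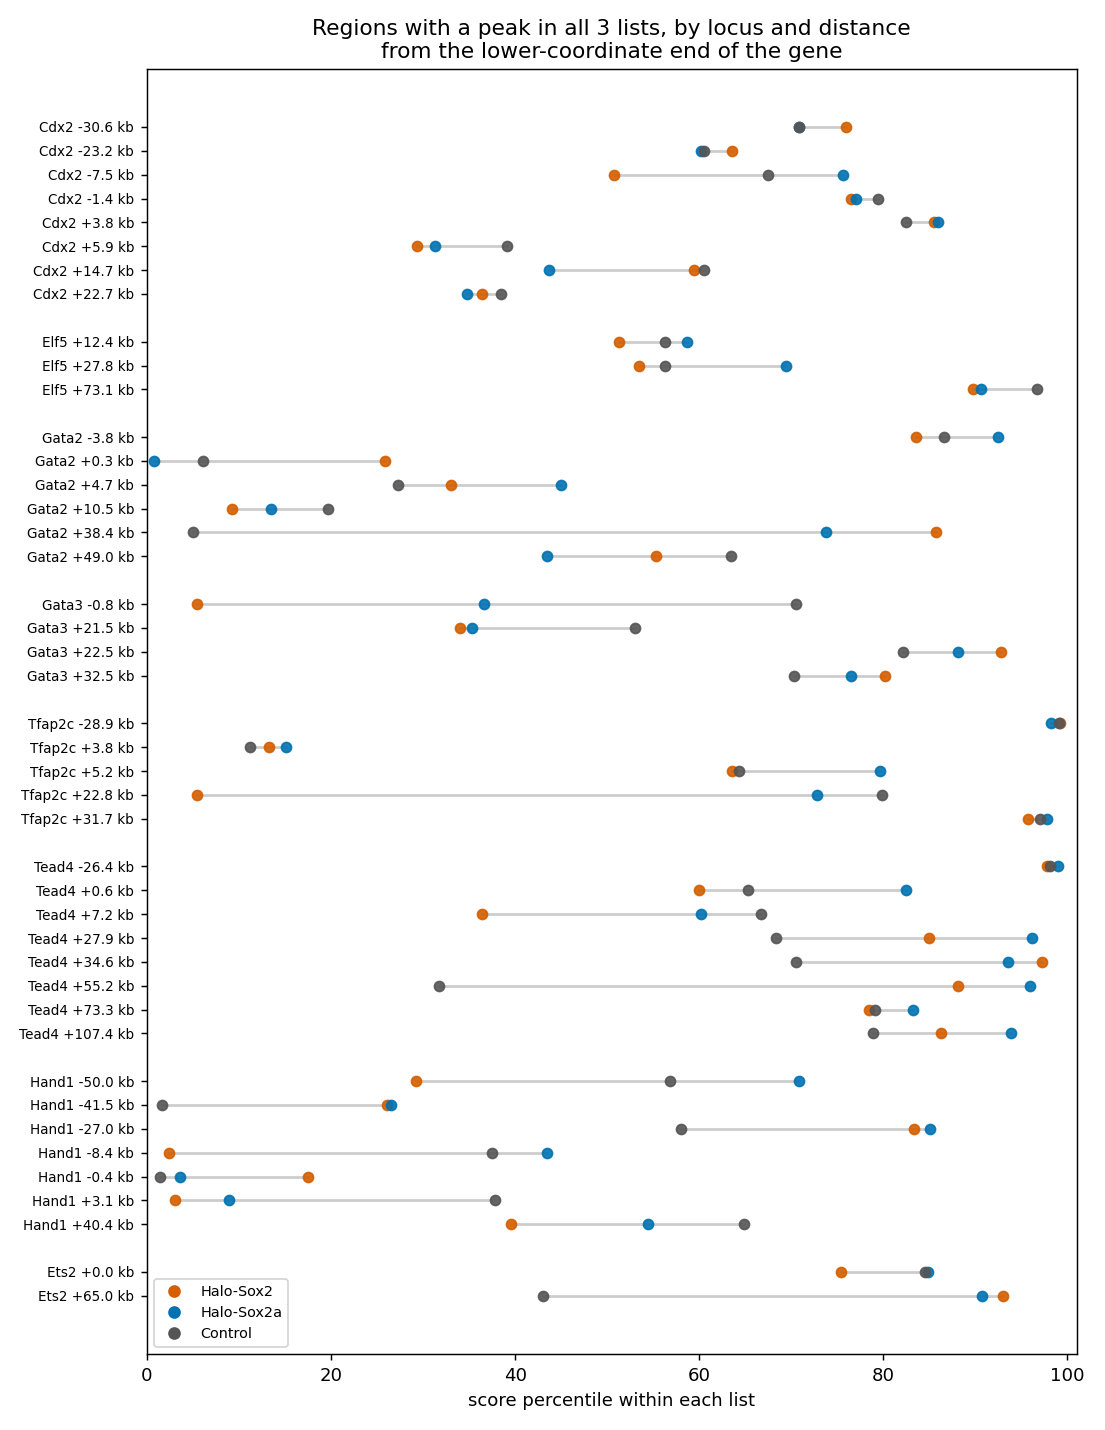
Score percentile of the highest peak in each list for the 43 regions held by all 3 lists, grouped by locus and labelled by distance in kb from the lower-coordinate end of the gene. The widest gaps with a low control value are at Gata2, Tead4 and Ets2, and the widest with a high control value are at Gata3 and Tfap2c.

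Tead4 (chromosome 6, 128227143 to 128300813), the factor upstream of Cdx2 and Gata3 in the outer cells of the embryo, had its largest differences inside the gene. A region from 128281895 to 128282726 was at percentiles 88.1, 96.0 and 31.7, with ranks of 10541, 3401 and 49628. A region from 128261220 to 128262273 was at 97.2, 93.6 and 70.5. The region from 128254321 to 128255666, was at 85.0, 96.2 and 68.3. In these 3 regions the control had the lowest percentile, and a peak was nonetheless present in it. Not every region inside Tead4 followed that order, since the one from 128234120 to 128234663 was at 36.4, 60.2 and 66.7.

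Both ends of Tead4 were open in every list. The lower-coordinate end (128227373 to 128228090) was at 60.0, 82.4 and 65.3, and the higher-coordinate end (128299783 to 128301054) at 78.4, 83.2 and 79.1. The highest peak of the locus in each list lay 26.4 kb below the gene (128200092 to 128201487), at 97.8, 99.0 and 98.1, which are close to each other. Tead4 also held 2 regions of the control alone inside the gene, at percentiles 12.5 and 6.49, and 2 of Halo-Sox2a alone, at 20.6 and 47.6. A further region of Halo-Sox2a alone (128315548 to 128316073), outside genes, was at 55.2. The neighbouring gene Tulp3 held the 1 region of Halo-Sox2 alone at this locus (128342455 to 128343313, percentile 78.7) and a region of all 3 lists (128333820 to 128335237), at 86.2, 93.9 and 78.9. Inside Tead4, Halo-Sox2a and the control without Halo-Sox2 shared a region from 128285768 to 128286234, at 54.5 and 72.4. Halo-Sox2 and the control without Halo-Sox2a shared a low region from 128318327 to 128318669, at 25.4 and 24.7.

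Cdx2 (chromosome 5, 147300900 to 147307249), the homeobox factor that trophectoderm needs, differed little between the lists inside and at both ends of the gene. The highest peak of the locus in every list lay inside the gene (147304085 to 147305348), at percentiles 85.5, 85.9 and 82.4. Below the gene, a region from 147299191 to 147299907 was at 76.5, 77.0 and 79.4. The region over the start, from 147306162 to 147307499, was lower, at 29.4, 31.3 and 39.1. None of the 8 Cdx2 regions in all 3 lists differed from the control by over 20 points.

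The peaks over the Cdx2 start ended at different places. The control peak (147306162 to 147307499) covered all 250 bases of the window printed above, the octamer included. The Halo-Sox2a peak (147306366 to 147307353) covered 104 of them and ended between the start and the octamer. The Halo-Sox2 peak (147306548 to 147307212) lay inside the gene, short of the start, and covered none. The octamer letters therefore lay in a called peak in the control list and in neither transgene list, while the peaks themselves had neighbouring percentiles. The control peak was also the widest, at 1338 bp, against 988 bp for Halo-Sox2a and 665 bp for Halo-Sox2, and the part of the caller in these ends was not tested.

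Beyond the gene, both transgene lists had a peak that the control lacked at 147297792 to 147298439, 2.79 kb below Cdx2 and within 1 kb of an end of the non-coding gene Gm35112. It was at percentile 72.3 for Halo-Sox2 and 63.0 for Halo-Sox2a. Inside Flt3 lay the highest region of Halo-Sox2 alone (147354522 to 147355229, percentile 57.4), and the highest of Halo-Sox2a alone (147284359 to 147284610, 34.8) lay outside genes. The control alone held a region inside Flt3 (147356457 to 147356726) at 17.7. Halo-Sox2a and the control without Halo-Sox2 shared a region from 147331460 to 147331835, at an end of Flt3, at 39.4 and 24.7.

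Gata3 (chromosome 2, 9857078 to 9887953), a zinc finger factor that acts beside Cdx2 in the trophectoderm, had its largest difference at its lower-coordinate end, opposite to the printed start. The region from 9855916 to 9856694 was at percentiles 5.40, 36.6 and 70.5. The order thus had the control highest, unlike in the 3 regions inside Tead4. The peaks were 503, 556 and 779 bp wide.

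At the Gata3 start the region from 9878129 to 9878959 was at 34.0, 35.3 and 53.1, so that the control was higher by 19.1 and 17.8 points. The Halo-Sox2 peak covered all 3 AP-2 matches of the printed window, and the control peak the 2 nearer to the start. The Halo-Sox2a peak ended before all of them. Next to it, the highest Gata3 peak of each list (9879210 to 9879883) was at 92.8, 88.1 and 82.1, and here the control was lowest. The region from 9889068 to 9890129, at the end of the non-coding gene 9230102O04Rik, was at 80.2, 76.5 and 70.3.

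No Gata3 region was held by both transgene lists without the control. Inside Taf3, which encodes a subunit of the general factor TFIID, lay the highest region of Halo-Sox2 alone (9924370 to 9924959, percentile 69.6) and that of Halo-Sox2a alone (9922822 to 9923617, 34.8). Of the control alone, the highest region (9853199 to 9853448) was at 25.4. Of those shared by Halo-Sox2a and the control without Halo-Sox2, the highest (9936054 to 9936313) was at 71.5 and 76.0.

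Tfap2c (chromosome 2, 172545678 to 172558622) encodes AP-2 gamma, which trophoblast stem cells need. Its lower-coordinate end carried peaks of both transgene lists and none of the control. The region from 172544634 to 172545064 was at percentile 64.6 for Halo-Sox2 and 73.4 for Halo-Sox2a, and the nearest control peak was 4318 and 4240 bp away from those peaks. Just inside the gene, the region from 172546905 to 172547668 was at 40.5 and 26.0, with the nearest control peak 1636 and 1789 bp away. Between them lay a low peak of Halo-Sox2 alone (172545740 to 172546078, at 5.73), and at the higher-coordinate end 1 of Halo-Sox2a alone (172559053 to 172559288, at 40.7). The control list first had peaks further into the gene, where the lists met again: the region from 172550322 to 172551525 was at 63.5, 79.6 and 64.4, and the small region from 172549275 to 172549609 at 13.3, 15.1 and 11.2.

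The Tfap2c flanks held the highest Halo-Sox2 and control peaks of the 8 loci. The region from 172516308 to 172517213, 28.9 kb below the gene and outside genes, was at percentiles 99.2, 98.2 and 99.1, the highest Tfap2c peak of each list. A region on the other side (172576928 to 172577908), inside the non-coding gene Gm36038, was at 95.7, 97.8 and 97.0. At these strong peaks the percentiles of the 3 lists were close to each other. The region from 172567938 to 172568953, 9.82 kb above the gene, was not, at 5.40, 72.7 and 79.9, so the Halo-Sox2 list stood apart there.

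Of the other Tfap2c regions, 3 were held by both transgene lists without the control. They lay from 172607554 to 172608242, at 39.5 and 87.2, from 172498635 to 172499385, at 78.4 and 66.6, and from 172529553 to 172530041, at 17.3 and 35.1. Together with the pair at the gene, Tfap2c thus held 5 of the 9 regions of that class at the 8 loci. Without Tfap2c, 31.0% of the peaks at the other loci had no control peak in either transgene list, against 37.0% and 36.8% with it. Of Halo-Sox2a alone, the highest region (172510208 to 172510926) was at 79.0, and of Halo-Sox2 alone (172580742 to 172580947) at 29.2. The control alone held a region at 10.96 (172583562 to 172583808). With the control, Halo-Sox2 alone shared a region at 2.37 and 37.5 (172594344 to 172594783), and Halo-Sox2a alone a region at 21.2 and 31.7 (172522637 to 172523021).

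Elf5 (chromosome 2, 103412098 to 103450989), an ETS factor that is methylated and silent in embryonic stem cells and active in trophoblast stem cells, has 2 start sites in the table. At the upstream start, whose window is printed above, no list had a peak, and the nearest region (103400453 to 103401350) was centred 11.2 kb below it. That region was at percentile 63.9 for Halo-Sox2a and 56.3 for the control and was absent for Halo-Sox2. The downstream start (103424068), inside the gene, lay in a merged region of all 3 lists (103423834 to 103425102), at 51.3, 58.6 and 56.3. The start itself was covered by the Halo-Sox2 and Halo-Sox2a peaks, while the control peak began past it, at 103424557. The Halo-Sox2 peak there covered 234 of the 250 bases before that start, the Halo-Sox2a peak 10 and the control peak none.

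The highest peak of Halo-Sox2 alone at any of the 8 loci lay near Elf5. It ran from 103389941 to 103390829, 21.7 kb below the gene and within 1 kb of an end of the non-coding gene BC016548, and stood at percentile 95.1 (score 742, rank 4376) in its list, the highest of the Elf5 locus. Neither other list had a peak there. Halo-Sox2a alone reached 41.0 at most (103372467 to 103373050), and the region of the control alone (103458994 to 103459178) was at 17.7. Both transgene lists without the control held 2 regions, at 6.24 and 19.2 (103366152 to 103366704) and at 0.105 and 13.5 (103480151 to 103480397). For Halo-Sox2a and the control, the highest peak of the locus lay at an end of the neighbouring gene Cat, which encodes catalase (103484640 to 103485757), at 90.6 and 96.7, beside 89.7 for Halo-Sox2.

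Ets2 (chromosome 16, 95702407 to 95721049), another ETS factor, which maintains trophoblast stem cells, was the sparsest locus. Its start lay in a wide region of all 3 lists (95701654 to 95703118), at percentiles 75.4, 84.9 and 84.5. The peaks covered all 250 bases before the start in each. No region lay wholly inside the gene away from that end.

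The other shared Ets2 region stood apart from the control. It ran from 95766938 to 95767874, 46.4 kb above the gene and inside the non-coding gene Gm32130, and was at 93.0, 90.7 and 43.0. It was the highest Ets2 peak of both transgene lists. The peaks were 937, 752 and 388 bp wide. Of the 4 regions of Halo-Sox2a alone, the highest (95735848 to 95736534) was at 51.1. The control alone held a region at 52.3 (95755712 to 95756723), and Halo-Sox2a with the control a region at 20.6 and 26.1 (95768966 to 95769892).

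Gata2 (chromosome 6, 88193891 to 88207032), a zinc finger factor of trophoblast giant cells and of blood, was weakly covered at the gene itself. The merged region that holds the upstream start (88193784 to 88194530) was at percentiles 25.9, 0.791 and 6.10. Only the control peak covered that start (88193891). The Halo-Sox2 and Halo-Sox2a peaks began past it, at 88193983 and 88194218. The merged region that holds the downstream start (88198249 to 88198953), whose window is printed above, was at 33.0, 45.0 and 27.3. Both transgene peaks covered that start (88198664), while the control peak ended before it, at 88198631. Near the other end of the gene the region from 88203873 to 88204875 was at 9.22, 13.5 and 19.7. These 3 regions thus stood in the lower part of every list. For Halo-Sox2a and the control, the highest peak of the locus lay 3.77 kb below the gene (88189523 to 88190728), at 92.4 and 86.6, beside 83.6 for Halo-Sox2.

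The widest difference from the control of any shared region at the 8 loci lay above Gata2. The region from 88231927 to 88232595, 25.2 kb from the gene and outside genes, was at percentiles 85.7, 73.7 and 5.01, and was the highest Gata2 peak of Halo-Sox2. The scores were 464, 200 and 20, where the lowest score in each list was 13. The peaks were 574, 657 and 221 bp wide. The highest regions held by fewer lists were at 29.5 for Halo-Sox2 alone (88196995 to 88197333), at 51.1 for Halo-Sox2a alone (88215227 to 88216147) and at 24.7 for the control alone (88151485 to 88151762). Halo-Sox2 and the control without Halo-Sox2a shared a region at 33.8 and 42.7 (88235849 to 88236513).

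Hand1 (chromosome 11, 57828713 to 57832147), a bHLH factor that trophoblast giant cells need, had low peaks at the gene in every list. At its lower-coordinate end the region from 57827966 to 57828643 was at percentiles 17.5, 3.63 and 1.39. At its higher-coordinate end the region from 57831383 to 57832161 was at 3.08, 8.94 and 37.8. A region of Halo-Sox2 alone (57829195 to 57829698) was at 5.90. The control was thus the lowest list at the lower end and the highest at the other.

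Hand1 held 4 of the 7 shared regions that were over 20 points below the control in the Halo-Sox2 list. Besides the higher-coordinate end, these ran from 57820122 to 57820450, at 2.37, 43.5 and 37.5, from 57868785 to 57869422, at 39.5, 54.5 and 64.8, and from 57778486 to 57778953, at 29.2, 70.9 and 56.8. In each the Halo-Sox2 list was the lowest of the 3. The midpoint of the Halo-Sox2 peak in the last of them lay 50.1 kb from the gene, so that this peak itself was not a member. With percentiles taken only among regions of all 3 lists, none of these 4 regions was over 20 points below the control. In the order given, Halo-Sox2 and the control then stood at 1.41 and 18.0, 1.06 and 17.7, 27.9 and 45.9, and 19.0 and 36.2.

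The highest Hand1 peaks of the transgene lists lay at an end of the neighbouring gene Sap30l (57800959 to 57802377), at percentiles 83.4 and 85.0, where the control was at 58.0. A region at an end of Galnt10 (57786930 to 57787523) was low in all lists, at 26.1, 26.6 and 1.62. Both transgene lists without the control held a region from 57790737 to 57791436, at 53.1 and 65.8. Of Halo-Sox2a alone, the highest region (57825362 to 57825607) was at 14.8, and that of the control alone (57836852 to 57837346) at 5.54. The highest control peak of the locus, at 64.8, was the one from 57868785 to 57869422.

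At 12 other trophoblast genes (Eomes, Krt7, Krt8, Krt18, Ascl2, Esx1, Plac1, Gcm1, Cdh3, Fgfr2, Yap1 and Bmp4), 157 regions were counted by the same rule, and peaks near both Krt8 and Krt18, which are neighbours, were counted once. Of their Halo-Sox2 peaks 45 of 113 (39.8%) had no control peak, and of their Halo-Sox2a peaks 36 of 114 (31.6%). Both transgene lists without the control held 16 regions (10.2%), Halo-Sox2 alone 29 (18.5%) and Halo-Sox2a alone 19 (12.1%). At these genes there were more regions of Halo-Sox2 alone than of Halo-Sox2a alone, as in the genome. Plac1, a placental gene on the X chromosome, lacked a control peak at 8 of 11 Halo-Sox2 peaks and 3 of 8 Halo-Sox2a peaks. Fgfr2, a receptor for the growth factor that keeps trophoblast stem cells dividing, lacked one at 8 of 14 and 5 of 11. Eomes, a T-box factor of trophoblast stem cells, lacked one at 1 of 10 and 2 of 14, and Yap1, the partner of Tead4, at 4 of 15 and 5 of 17. The whole lists' shares are the 49.3% and 33.4% given above, and these 4 genes were chosen after their values were seen.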

How the data were processed

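The data were 3 peak lists, 1 per library, each giving a chromosome, start, end, name and score per peak. Per the submitters' processing notes the build was mm10, and the tools named were STAR, SAMtools, MACS2 3.0.0a7, MACS3 and deepTools 3.3.0, with roles, settings and any shift of read ends not given in the sources used here. Scores are whole numbers that the authors deposited without a stated scale. Each peak name holds 1 library's name, which marks calling by library. About 50000 cells entered each reaction and reads were 75-bp pairs, per the labels' protocols.

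Positions were made 1-based. Peaks overlapping by at least 1 bp were shared, and regions are merged overlapping peaks. Gene bodies and promoter sequence came from RefSeq tables of GRCm38.p6. Shares have Wilson 95% intervals. Python 3.11.15, pandas 2.3.3 and SciPy 1.17.1 were used, and overlap and merging were tested on simulated peaks. At each locus the text names the highest peak of each list, regions at gene ends, the highest region of each class not held by all lists, and shared regions over 20 points from the control. The members and lists were chosen with earlier results of these data known.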

Additional observations from a re-analysis of the deposited data

How the results depend on the processing

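With 1 library per group, no alternative measures the spread between libraries, and depth is unknown, so a missing peak may lie just under a threshold. No paired analysis was possible because each group has 1 library. Of 135 values recomputed, 114 stayed within the counting interval (shares) or within 1.5 times (counts). All 21 that moved were among the 87 planned values. The other 48, which leave out a locus in turn, were chosen after seeing the data, and all stayed. They reuse most of the same peaks, so their staying within the full set's interval says little about stability. The comparison with the genome was less stable. In 5 of the 8 omissions the interval of the Halo-Sox2 share without a control peak took in the whole list's 49.3%, and omitting Elf5 left the 38.7% of Halo-Sox2 without Halo-Sox2a outside its interval (16.3 to 37.3%). The shares ran from 31.0 to 41.9% for Halo-Sox2 and from 31.0 to 39.2% for Halo-Sox2a peaks without a control peak.

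Requiring an overlap of 50% of both peaks gave 49.3% (38.2 to 60.5%) for Halo-Sox2 without control, 47.2% and 31.9% for control without Halo-Sox2 and without Halo-Sox2a, and 42.5% for Halo-Sox2 without Halo-Sox2a. The whole lists rose too, to 59.5, 50.4, 36.03 and 49.8%, the first now inside its interval. Scores of at least 2 times the lowest left 20 regions each of Halo-Sox2 alone and of Halo-Sox2a alone. Lists of equal size left 11 regions of Halo-Sox2 alone.

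A smaller or larger window holds fewer or more regions by construction. The genome's class shares do not depend on the window and are those given above. Of the 73 regions within 20 kb, 10 were held by Halo-Sox2 alone, 14 by Halo-Sox2a alone and 4 by both without control. The control alone held 7, Halo-Sox2 with control 1 and Halo-Sox2a with control 7. Of the 30 shared regions there, 2 were over 20 points above the control for Halo-Sox2 (12.4% in the genome) and 3 for Halo-Sox2a (16.1%). Of the 184 regions within 100 kb, 32 were of Halo-Sox2 alone, 19 of control alone and 20 of Halo-Sox2a and control. Of the 64 shared regions there, 13 were over 20 points higher in Halo-Sox2 than in the control (12.4% in the genome) and 12 lower (24.6%). In Halo-Sox2a 13 were over 20 points higher (16.1%). With percentiles among regions of all 3 lists, 3 were lower in Halo-Sox2 and 4 in Halo-Sox2a, and the cause was not tested.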

Other observations

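Ends of neighbouring protein-coding genes made up 7 of the 120 regions, and 6 of these were in all 3 lists, where 74.3% of all regions at protein-coding gene ends were. Percentiles are again those of Halo-Sox2, Halo-Sox2a and control. The regions belonged to Pdx1, a homeobox gene of the pancreas beside Cdx2, at percentiles 75.9, 70.9 and 70.9, to Urad (59.4, 43.7 and 60.6, and 36.4, 34.8 and 38.4 at its other end), and to Cat, Galnt10 and Sap30l. The region at an end of Flt3 had no Halo-Sox2 peak.

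Above percentile 75 of their own list stood 22 of 73 Halo-Sox2 peaks (30.1%), 22 of 87 Halo-Sox2a peaks (25.3%) and 13 of 72 control peaks (18.1%). By the definition of the percentile, about 75% of each whole list stands at or below that mark, and the rest above it. Whether the shares at these loci differ from those of the whole lists, or from each other, was not tested. The nearest peaks on either side of the 50-kb limit lay at Hand1. A Halo-Sox2a peak at 49.99 kb (percentile 70.9) and a control peak at 49.99 kb (56.8) were inside it, and the Halo-Sox2 peak at 50.08 kb (29.2) was outside.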
